A study of Homo sapiens with 12 samples.

Results

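The RAS-RAF-MEK-ERK cascade was followed through 7 of its genes, chosen by name from a table of 19973 genes: the RAS GTPases NRAS and HRAS, the RAF kinases ARAF and BRAF, the MEK kinases MAP2K1 (MEK1) and MAP2K2 (MEK2), and the ERK kinase MAPK3 (ERK1). The rule of choice used no expression value, but earlier results of these data were known when it was made. ISP-I (isovalerylspiramycin I, a macrolide) was the treatment. In H460 cells BRAF mRNA rose 5.44-fold and MAP2K1 1.40-fold, while ARAF and MAPK3 fell. HRAS and MAP2K2 were also lower, but their calls were lost under other processing (MAP2K2 with other scaling or removal of the GC trend, HRAS with the latter). In A549 cells NRAS, BRAF and MAP2K1 were higher and ARAF and MAPK3 lower, none by more than 2-fold.

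The study sequenced RNA from H460 and A549, established human non-small cell lung cancer cell lines whose genotype is labelled WT and which, per the study, carry inactive KEAP1. Each line was left non-treated (control) or received 10 µM ISP-I over 48 h. Each of the 4 groups holds 3 libraries. The values are FPKM, in which a gene's fragments are divided by its listed length and by the size of the library. The labels name no vehicle for the controls and do not say that the replicates were separate cultures, so the p values measure the spread between these libraries, which may be technical.

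RAS proteins are small GTPases at the inner face of the plasma membrane that switch on when growth factor receptors recruit nucleotide exchange factors. Active RAS binds RAF kinases, RAF phosphorylates MEK, and MEK phosphorylates ERK, which enters the nucleus and changes transcription. The cascade is a main growth signal of lung adenocarcinoma and is controlled mostly at the protein level, by phosphorylation and by feedback from ERK targets, none of which was measured here.

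Reads on genes numbered 14225849 to 17874422 per library. A549 control library 3 stood apart from the other A549 controls: the chi-square of its reads per degree of freedom, which is 1 for sampling noise, was 26.7 and 30.8 against them and 3.30 between those. In H460 treated with ISP-I it was 21.5 to 92.0 between pairs. No pair was within sampling noise. The keratins KRT8, KRT18 and KRT19 were at 43.8 FPKM or more in every library and moved with treatment. KRT8 went from between 567.7 and 748.3 to between 313.5 and 331.7 in A549, KRT19 from between 103.2 and 140.9 to between 52.3 and 61.5 in H460, and KRT18 from between 66.9 and 75.5 to between 106.8 and 159.5 in H460. By contrast, the epithelial marker EPCAM was between 0 and 0.148 in H460. Of the 9 markers of immune, endothelial and fibroblast cells the highest level was 6.43 (CD14, in an H460 control). CD14 went from between 5.13 and 6.43 in H460 controls to between 0.849 and 1.60 with ISP-I, and from between 0.725 and 1.32 to between 0.0423 and 0.310 in A549, while PTPRC, CD3E and the endothelial PECAM1 and CDH5 were at or near 0 throughout. The 3 fibroblast markers summed to between 0.725 and 0.847 in H460 controls and to between 2.37 and 2.62, mostly PDGFRB, with ISP-I. In A549 PDGFRB went from 0.0296 or less to between 0.250 and 0.313, and DCN was near 0 in every library. The part of such markers in the results was not tested. In bulk RNA a lower level in each cell and a lower number of cells with the mRNA cannot be told apart.

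The DNA just upstream of the start of each gene's MANE Select transcript (the reference transcript of the gene, GENCODE 44, hg38) is shown for the 3 members with the largest H460 responses. Lower case is plain sequence and capitals mark each match, on either strand, to 1 of 7 short motifs: the GC box (GGGCGG), the box of the letters CCAAT, the ETS site (CCGGAAG), the E box (CACGTG), the cAMP element or CRE (TGACGTCA), the AP-1 site (TGACTCA) and the EGR site (GCGGGGGCG). BRAF is at chr7:140924930-140925179 and MAPK3 at chr16:30123310-30123470, both on the minus strand, and ARAF is at chrX:47560955-47561204 on the plus strand. For MAPK3 the 89 bases nearest the start are left out because other transcripts of the gene use them as exon. The genes as listed with the FPKM extend farther out than these starts for MAPK3 (to 30123506) and ARAF (from 47561100). By these listed ends the whole MAPK3 stretch shown lies inside the gene. The last part of the ARAF window, with both of its CCAAT motifs, lies inside the listed ARAF gene.
BRAF: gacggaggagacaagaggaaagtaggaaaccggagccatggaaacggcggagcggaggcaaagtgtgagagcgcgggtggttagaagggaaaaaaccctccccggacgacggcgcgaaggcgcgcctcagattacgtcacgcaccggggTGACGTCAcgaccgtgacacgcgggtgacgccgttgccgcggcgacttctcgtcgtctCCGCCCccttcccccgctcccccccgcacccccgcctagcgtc
MAPK3: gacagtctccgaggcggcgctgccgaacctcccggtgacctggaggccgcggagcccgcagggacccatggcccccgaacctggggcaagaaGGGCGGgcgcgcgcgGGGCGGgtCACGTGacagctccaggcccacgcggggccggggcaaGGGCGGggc
ARAF: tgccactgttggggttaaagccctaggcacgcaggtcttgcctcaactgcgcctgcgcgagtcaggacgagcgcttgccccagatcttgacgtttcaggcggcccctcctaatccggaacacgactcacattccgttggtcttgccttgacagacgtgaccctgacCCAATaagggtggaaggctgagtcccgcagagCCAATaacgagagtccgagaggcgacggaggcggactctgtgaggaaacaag

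The BRAF window held 1 CRE, the palindrome to which CREB and ATF factors bind, and 1 GC box, the letters of SP1-type sites. A CRE was in 2.46% of the windows of 250 bases before 19061 MANE starts and in no other member's window. The ARAF window held 2 CCAAT motifs (34.4% of all windows had at least 1) and no GC box, the only member without one, against 59.9% of all windows with at least 1. The whole MAPK3 window of 250 bases held 6 GC boxes and was 80.4% G and C, beside a median of 63.2% over all windows. It also held an E box, as the NRAS window did, a motif in 7.87% of all windows. Of the other members, HRAS had 3 GC boxes, 1 CCAAT and the only ETS motif (11.9% of all windows), MAP2K1 had 3 GC boxes and 1 CCAAT, and NRAS and MAP2K2 had 2 GC boxes each. No window held the AP-1 or EGR letters, which were in 3.06% and 7.57% of all windows. The HRAS and MAP2K1 windows, like those of MAPK3 and ARAF, also lie in or reach into the genes as listed. The matches describe letters and were not tested against the responses.

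**Figure D1:**
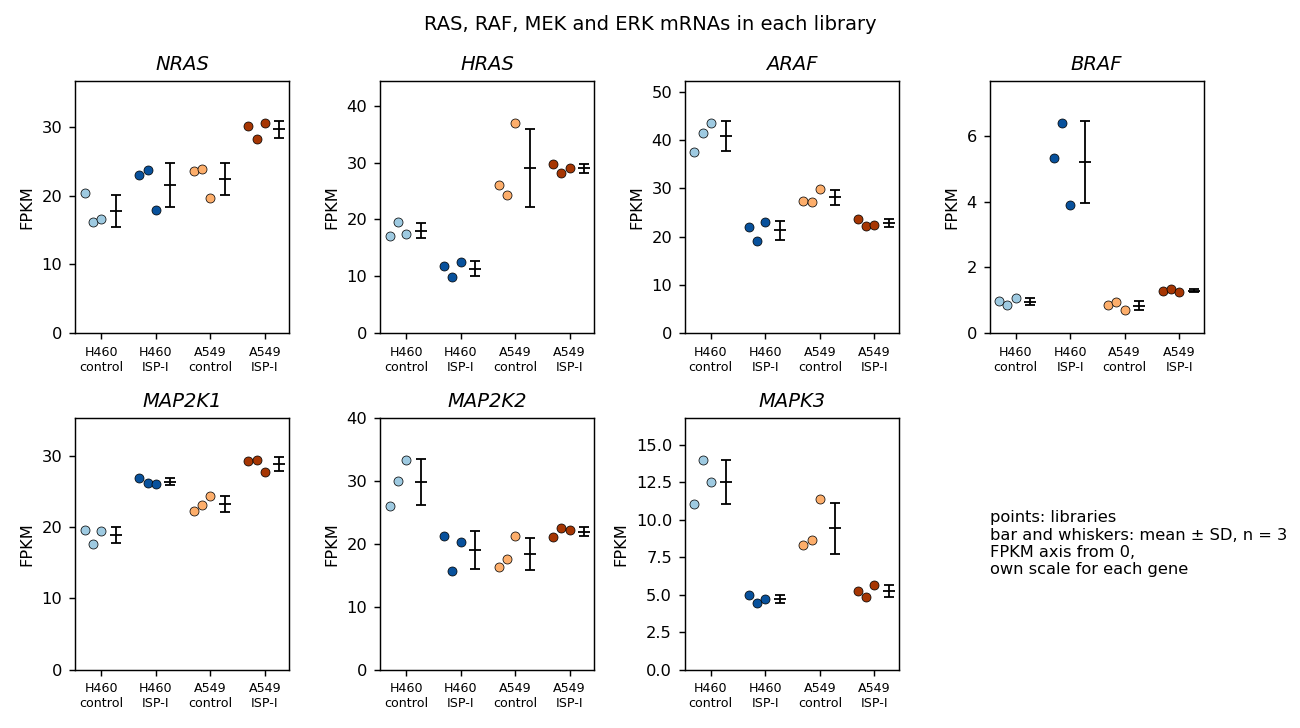
FPKM of each of the 7 genes (vertical axis, from 0, own scale per gene) in the 4 groups; points are libraries, and the bar with whiskers is the mean ± SD of n = 3. BRAF in ISP-I-treated H460 (3.90 to 6.39) lies above every other group, and MAPK3 lies lower with ISP-I in both lines.

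The first question was how each gene responded to ISP-I in H460. Of the 7 genes, 2 were higher and 4 lower (adjusted p under 0.05, limma on log2(FPKM + 1), Benjamini-Hochberg over all 13423 genes tested), and the groups did not overlap for 6. In the same comparison 27.6% of all genes were higher and 41.5% lower, and 72.7% did not overlap, so shares of this size were common in the whole table. A fold change over 2 with the same adjusted p, the rule for a differentially expressed gene (DEG), was met by BRAF and MAPK3, and by 25.7% of all genes. The median log2 fold change was -0.62 over the members and -0.15 over all genes tested.

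Of the RAS genes HRAS fell in H460 and NRAS did not pass the test. NRAS (chromosome 1, 114704469 to 114716771, minus strand) was at 20.4, 16.1 and 16.7 FPKM in the controls and at 23.0, 23.8 and 17.9 with ISP-I. The third ISP-I library fell among the controls, and NRAS did not pass the test (log2 fold change 0.27, SE 0.148, limma adjusted p 0.14). Without that library NRAS passed as higher (0.39, adjusted p 0.0171). HRAS (chromosome 11, 532242 to 537287, minus strand) was at 17.1, 19.6 and 17.5 FPKM in the controls and at 11.8, 9.84 and 12.5 with ISP-I. All ISP-I libraries were below all controls, and HRAS fell by 0.63 on the log2 scale (SE 0.125, limma adjusted p 0.00201).

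The RAF kinases moved in opposite directions. ARAF (chromosome X, 47561100 to 47571920, plus strand), the RAF with the weakest kinase activity, was at 37.6, 41.4 and 43.6 FPKM in H460 controls and at 22.0, 19.1 and 22.9 with ISP-I. It fell by 0.91 on the log2 scale (SE 0.121, limma adjusted p 0.000206), with a wide gap between the groups. BRAF (chromosome 7, 140719327 to 140924929, minus strand), the RAF with the strongest kinase activity, was at 0.967, 0.840 and 1.06 FPKM in the controls and at 5.32, 6.39 and 3.90 with ISP-I. These values rest on 299 to 371 reads in the controls and 1355 to 2496 with ISP-I. The lowest treated library was well above the highest control, and the log2 fold change was 1.65 (SE 0.156, limma adjusted p 2.69e-05). Because BRAF lies near 1 FPKM, the added 1 shrinks this value, and it was 2.31 with 0.1 added instead. It was 2.70 by limma voom on the whole reads recovered from the FPKM, which also scales the libraries differently.

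Of the MEK kinases, which share ERK as their substrate, MAP2K1 rose and MAP2K2 fell. MAP2K1 (chromosome 15, 66386837 to 66491544, plus strand) was at 19.6, 17.6 and 19.4 FPKM in H460 controls and at 26.9, 26.1 and 26.0 with ISP-I. The treated libraries were tightly grouped above the controls (log2 fold change 0.46, SE 0.105, limma adjusted p 0.00420). MAP2K2 (chromosome 19, 4090321 to 4124122, minus strand) was at 26.1, 30.02 and 33.3 FPKM in the controls and at 21.2, 15.7 and 20.3 with ISP-I. It fell by 0.62 on the log2 scale without overlap (SE 0.150, limma adjusted p 0.00562).

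MAPK3, a kinase that carries the signal to the nucleus (chromosome 16, 30114105 to 30123506, minus strand), was at 11.1, 14.01 and 12.5 FPKM in H460 controls and at 4.99, 4.47 and 4.70 with ISP-I. The treated libraries averaged 4.72 ± 0.260 FPKM (SD, n = 3), 0.376 of the control mean, and did not overlap the controls. MAPK3 fell by 1.24 on the log2 scale (SE 0.120, limma adjusted p 3.08e-05).

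These H460 values depend on how libraries are scaled to each other. Scaling by median-of-ratios moved the median of all genes by 0.15 and changed the share of higher genes among all that passed from 40.0% to 51.5%. Under that scaling BRAF was at 1.87 and MAP2K1 at 0.73, ARAF, MAPK3 and HRAS were still lower (-0.63, -0.9985 and -0.37), NRAS passed as higher (0.54, adjusted p 0.0105) and MAP2K2 no longer passed (-0.36, adjusted p 0.0716). No member that passed changed its direction under any alternative tried in H460.

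In A549, 3 of the 7 genes were higher and 2 lower (13705 genes tested), and the groups did not overlap for 5. Of all genes, 30.5% were higher, 27% lower and 65.5% without overlap. None of the members was a DEG, against 7.71% of all genes. The median log2 fold change was 0.25 over the members and 0.02 over all genes.

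NRAS in A549 was at 23.6, 23.9 and 19.7 FPKM in the controls and at 30.1, 28.3 and 30.5 with ISP-I. It rose without overlap (log2 fold change 0.39, SE 0.0864, limma adjusted p 0.00493). HRAS was at 26.0, 24.2 and 37.0 FPKM in the controls and at 29.8, 28.1 and 29.1 with ISP-I. Control library 3 was above every treated library and the other 2 controls were below them, and HRAS did not pass (0.02, SE 0.142, adjusted p 0.919). Without control library 3, HRAS passed as higher (log2 fold change 0.20, limma adjusted p 0.00605).

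The RAF genes kept the H460 directions in A549 with smaller changes. ARAF was at 27.4, 27.2 and 29.96 FPKM in the controls and at 23.8, 22.1 and 22.5 with ISP-I. It fell by 0.29 on the log2 scale without overlap (SE 0.0683, limma adjusted p 0.00656). BRAF was at 0.867, 0.944 and 0.688 FPKM in the controls and at 1.29, 1.33 and 1.26 with ISP-I, on 238 to 489 reads. It was 1.55-fold higher by the means, again without overlap (log2 fold change 0.32, SE 0.0755, limma adjusted p 0.00655).

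MAP2K1 in A549 was at 22.2, 23.1 and 24.4 FPKM in the controls and at 29.3, 29.4 and 27.7 with ISP-I, a rise without overlap (log2 fold change 0.30, SE 0.0657, limma adjusted p 0.005001). MAP2K2 was at 16.3, 17.5 and 21.2 FPKM in the controls and at 21.1, 22.4 and 22.2 with ISP-I. Control library 3 alone reached the treated range, and MAP2K2 did not pass (0.25, SE 0.0972, adjusted p 0.0549). Without that library it was higher by 0.36 (limma adjusted p 0.000214). MAPK3 was at 8.32, 8.62 and 11.4 FPKM in the controls and at 5.22, 4.85 and 5.68 with ISP-I. It fell by 0.73 on the log2 scale without overlap (SE 0.119, limma adjusted p 0.00105), to 0.556 of the control mean.

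**Figure D2:**
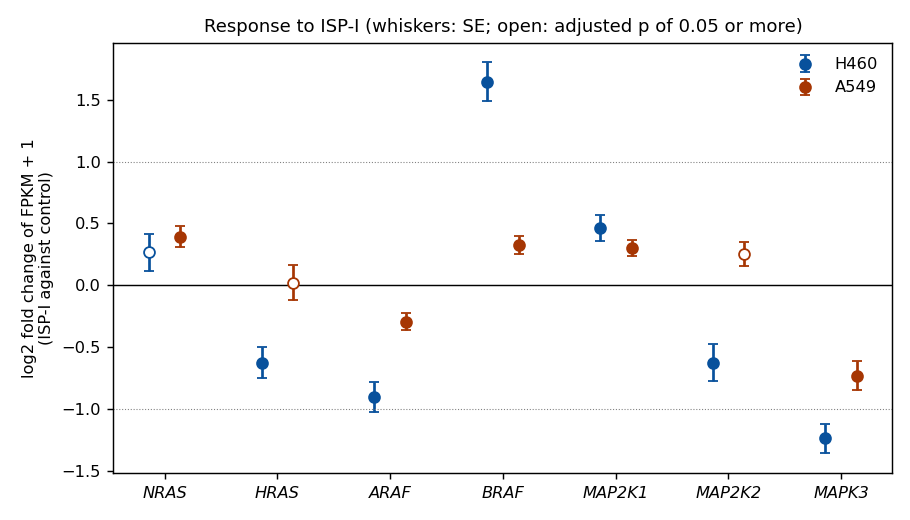
Log2 fold change of FPKM + 1 with ISP-I (vertical axis) for each gene in H460 (blue) and A549 (brown); whiskers are the SE, open points did not pass an adjusted p of 0.05, and dotted lines mark a 2-fold change. BRAF (1.65) and MAPK3 (-1.24) in H460 lie beyond the dotted lines, and MAP2K2 lies below 0 in H460 and above 0 in A549.

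Whether the lines responded differently was tested as the interaction of line and treatment over all 12 libraries. Of the members, 1 had a significantly more positive response in H460 than in A549 and 4 a more negative one, beside 18.6% and 34.7% of the 13953 genes tested. BRAF differed by 1.32 (SE 0.177, limma adjusted p 6.05e-05). MAP2K2 differed by -0.88 (SE 0.184, adjusted p 0.00167), HRAS by -0.65 (SE 0.197, adjusted p 0.0152), ARAF by -0.61 (SE 0.128, adjusted p 0.00163) and MAPK3 by -0.51 (SE 0.168, adjusted p 0.0227). NRAS and MAP2K1 did not pass (-0.13, adjusted p 0.555, and 0.16, adjusted p 0.212). The differences of BRAF and MAP2K2 passed under every alternative. Those of HRAS, ARAF and MAPK3 did not pass with median-of-ratios scaling (-0.35, -0.31 and -0.25), which moved the median of all genes in this comparison by 0.18, and MAP2K1 then passed (0.47, adjusted p 0.00441). MAPK3 also missed the threshold without A549 control library 1 or 2, A549 ISP-I library 3 or H460 control library 2 (adjusted p 0.0573 to 0.0602). Over all genes the share of positive differences among those that passed went from 34.9% to 53.5% with that scaling.

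Before treatment the lines differed in most members. Untreated H460 was higher than untreated A549 in 3 members and lower in 3, beside 28.6% higher and 31.6% lower of 13532 genes tested. MAP2K2 was higher by 0.67 on the log2 scale (SE 0.125, limma adjusted p 0.00166), ARAF by 0.52 (SE 0.0894, adjusted p 0.00111) and MAPK3 by 0.38 (SE 0.133, adjusted p 0.0357). HRAS was at -0.64 (SE 0.151, adjusted p 0.00615), NRAS at -0.32 (SE 0.117, adjusted p 0.0403) and MAP2K1 at -0.29 (SE 0.0838, adjusted p 0.0170). BRAF did not pass (0.10, adjusted p 0.359). The control groups overlapped for NRAS, BRAF and MAPK3. The NRAS call was lost under 8 of 12 alternatives (adjusted p up to 0.226) and the MAPK3 call under 5 of 12 (up to 0.127), for both including the fits without A549 control library 1 or 2 or H460 control library 2 or 3. The MAP2K1 call was lost under 3 of 12, namely median-of-ratios scaling (adjusted p 0.0502), voom (0.0595) and the fit without H460 control library 2 (0.0777). These comparisons share their control libraries with the responses above.

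The ratio of family partners within a library does not depend on the scaling between libraries, but it does depend on a trend with GC content, in which the partners differ. In H460 the ratios of control and ISP-I libraries did not overlap in any of the 3 families with partners. ARAF was 38.8, 49.3 and 41.0 times the level of BRAF per listed length in H460 controls and 4.13, 2.99 and 5.89 times with ISP-I, a 10.2-fold lower ratio (log2 change -3.36, pooled SD 0.368). In A549 the ratio went from 31.6, 28.8 and 43.6 to 18.4, 16.6 and 17.9 (-0.95, pooled SD 0.228). ARAF remained the more abundant RAF in every library, and the groups did not overlap in either line.

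Per listed length, the ratio of MAP2K1 to MAP2K2 in H460 went from 0.751, 0.587 and 0.583 in the controls to 1.27, 1.67 and 1.28 with ISP-I (log2 change 1.13, pooled SD 0.216). Per MANE length MAP2K2 stayed the higher of the pair in all 4 groups. In A549 it was 1.37, 1.32 and 1.15 in the controls and 1.39, 1.31 and 1.25 with ISP-I, and the groups overlapped (0.05, pooled SD 0.107). NRAS to HRAS went from 1.19, 0.823 and 0.954 to 1.95, 2.42 and 1.43 in H460 (0.95, pooled SD 0.328). In A549 it went from 0.905, 0.985 and 0.532 to 1.01, 1.005 and 1.05 (0.39, pooled SD 0.341), and control library 3 held the lowest ratio (0.11 without it). After removal of the GC trend, on log2(FPKM + 1), the change in H460 was 0.13 for NRAS to HRAS, -1.99 for ARAF to BRAF and 0.85 for MAP2K1 to MAP2K2, beside 0.89, -2.55 and 1.09 with the same added 1 and the trend kept. In A549 the corresponding changes were 0.08, -0.43 and -0.06. With 3 against 3 libraries an exact two-sided permutation test cannot give a p below 0.1, so the ratios are given without a test.

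**Figure D3:**
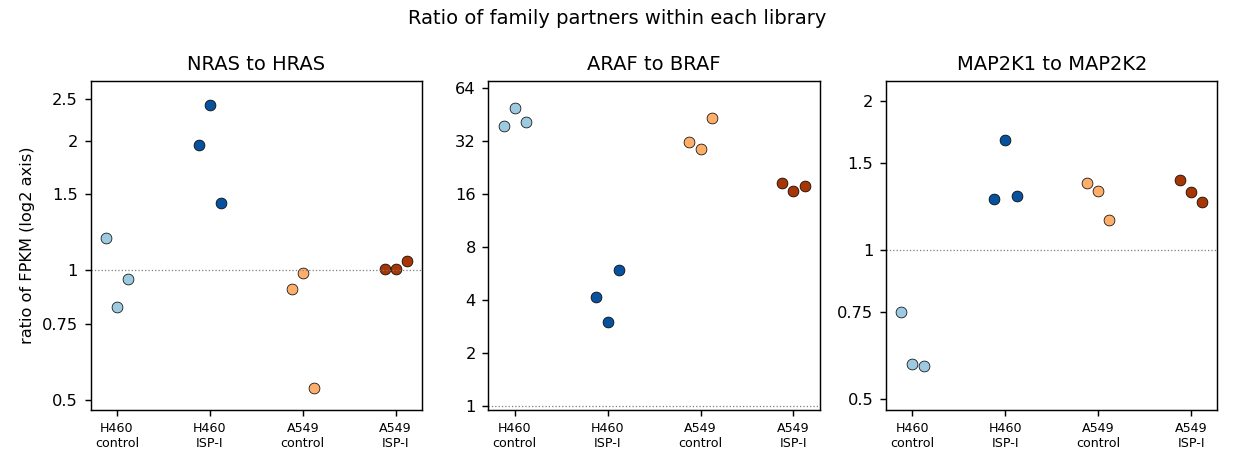
Ratio of FPKM of family partners within each library (vertical axis, log2 scale) in the 4 groups; each point is a library and the dotted line marks equal FPKM per listed length. The ratio of ARAF to BRAF went from between 38.8 and 49.3 to between 2.99 and 5.89 in H460, and that of MAP2K1 to MAP2K2, per listed length, from between 0.583 and 0.751 to between 1.27 and 1.67.

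The levels of family partners were also summed, as FPKM per listed length. NRAS and HRAS together were at 35.8 ± 1.69 FPKM in H460 controls and 32.9 ± 2.28 with ISP-I (mean ± SD, n = 3), and at 51.5 ± 4.58 and 58.6 ± 1.96 in A549. MAP2K1 and MAP2K2 together were at 48.7 ± 3.69 and 45.4 ± 3.25 in H460 and at 41.6 ± 3.62 and 50.7 ± 1.05 in A549. The weight of each partner in a sum depends on the length used. Per MANE transcript length in H460, MAP2K2 went from 90.3 to 57.7 and MAP2K1 from 22.0 to 30.7. On that scale HRAS went from 31.7 to 20.0 and NRAS from 17.7 to 21.5, and ARAF from 60.7 to 31.75 and BRAF from 3.47 to 18.9. Sums per MANE length were not made. Per listed length, ARAF and BRAF together went from 41.8 ± 3.08 to 26.6 ± 0.917 in H460 and from 29.0 ± 1.43 to 24.1 ± 0.854 in A549. On this scale the level of ARAF outweighed that of BRAF.

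The order of the levels changed with treatment, on the scale of FPKM per listed length. In H460 controls ARAF (40.9) led MAP2K2 (29.8), then came MAP2K1, HRAS and NRAS between 17.7 and 18.9 with overlapping ranges, MAPK3 (12.5) and BRAF (0.957). With ISP-I MAP2K1 (26.3) led in H460, NRAS (21.5), ARAF (21.4) and MAP2K2 (19.1) overlapped, HRAS (11.4) came next, and BRAF (5.20) and MAPK3 (4.72) overlapped at the bottom. In A549 controls HRAS (29.1) and ARAF (28.2) overlapped at the top, MAP2K1, NRAS and MAP2K2 overlapped in turn, and MAPK3 (9.44) and BRAF (0.833) were lowest. With ISP-I NRAS (29.6), HRAS (29.0) and MAP2K1 (28.8) overlapped at the top of A549, and BRAF (1.29) stayed last.

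The listed lengths are not those of a single transcript, and this changes the order between genes. The listed length of BRAF was 23433 bases against 6459 for its MANE Select transcript, and that of MAP2K2 was 5229 against 1727, while for NRAS both were 4326. Per MANE length MAP2K2 had the highest mean level in all 4 groups, overlapping HRAS in A549 controls. BRAF held the same position on both scales, last of 7 in 3 groups and sixth in treated H460 (18.9 against 9.69 for MAPK3). Fold changes and tests of a gene do not depend on its length, apart from the added 1.

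The members also differed in base composition, and over the whole table the response differed with GC content. The median log2 fold change in H460 went from 0.08 in the quintile of genes with the lowest transcript GC content to -0.31 in the quintile with the highest (Pearson r -0.17 across 13254 genes, which are not independent). NRAS (37.4% GC) was in the lowest quintile, BRAF (41.1%) in the next, MAP2K1 (51.2%) in the middle one and ARAF (59.0%) in the one above it. MAPK3 (61.0%), HRAS (64.3%) and MAP2K2 (65.4%) were in the highest. After each library's trend with GC content was removed, BRAF (1.60), MAP2K1 (0.78), ARAF (-0.39) and MAPK3 (-0.70) still passed in H460, and HRAS (-0.08, limma adjusted p 0.471) and MAP2K2 (-0.07, adjusted p 0.580) did not. In A549 the same 5 members as before passed and MAP2K2 was added (0.35, adjusted p 0.00105).

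**Figure D4:**
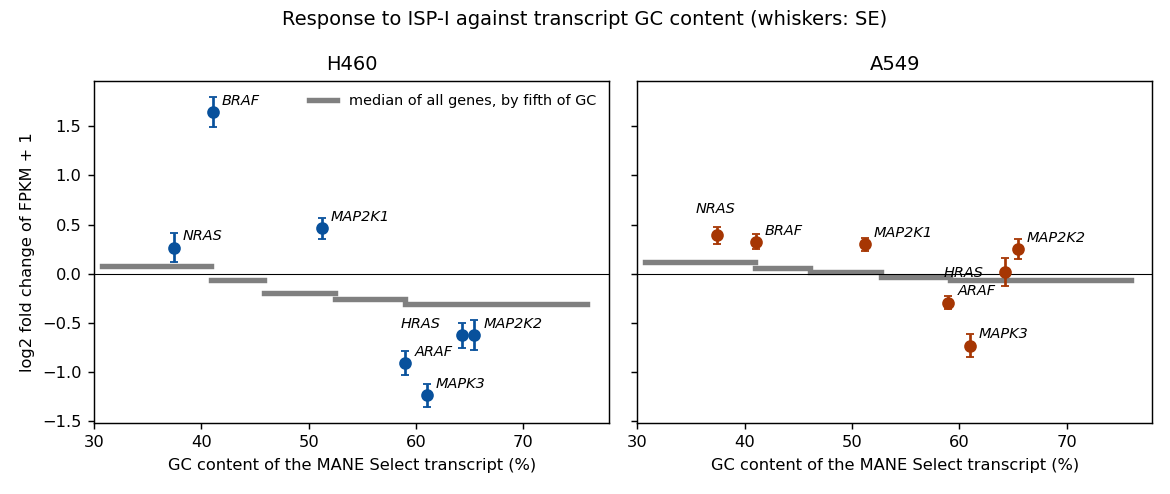
Log2 fold change of FPKM + 1 with ISP-I (vertical axis) against the GC content of the MANE Select transcript in percent (horizontal axis) for the 7 genes in H460 and A549; whiskers are the SE and grey bars the median of all genes in each quintile of GC content. In H460 the grey bars step down from 0.08 to -0.31, and in A549 from 0.11 to -0.06.

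Some reads of 3 members could belong to genes on the opposite strand, since no source states whether reads were counted by strand. NDUFB2 shares 3464 bases with BRAF, which rose in both lines. In H460 NDUFB2 went from 2.73 to 1.48 FPKM (log2 fold change -0.60, limma adjusted p 0.00568). In A549 it went from 2.41 to 1.74 and did not pass (-0.30, adjusted p 0.0699). SNAPC5 shares 1410 bases with MAP2K1, which also rose in both lines. SNAPC5 went from 10.1 to 4.87 in H460 (-0.91, adjusted p 0.000546) and from 14.6 to 19.7 in A549 (0.41, adjusted p 0.00262). SYN1 shares 20 bases with ARAF and stayed under 1 FPKM on average. The part of reads from the opposite strand in the values of these members was not tested. ARAF, BRAF and MAP2K1 also have processed copies in the genome, between which reads could be split.

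The genes around the cascade were followed in 8 lists with 103 genes. Their counts are to be read beside the shares of all genes that passed, which in H460 were 27.6% higher with 41.5% lower, and in A549 30.5% with 27%. In the list of MAPK transcriptional output, genes that ERK signaling is known to induce, 7 of 10 were higher and 2 lower in H460. The median log2 fold change of the list was 0.77 there, beside -0.15 for all genes. In A549, 5 were higher and 1 lower (0.18 beside 0.02). EPHA4, 1 of the 7 in H460, stayed under 1 FPKM on average (0.389 and 0.627). The H460 counts became 8 and 1 with median-of-ratios scaling and with voom. With the GC trend removed they were 7 and 1 in H460 and 4 and 1 in A549. SPRY2, a feedback inhibitor of receptor signaling, rose 15.2-fold in H460, from 6.58 ± 0.515 to 99.8 ± 2.62 FPKM (log2 fold change 3.74, limma adjusted p 1.2e-07). In A549 SPRY2 was at 8.82 and 9.23 (0.06, adjusted p 0.505) and PHLDA1 rose most, from 14.1 ± 1.59 to 24.8 ± 1.37. ETV5, an ETS factor, fell most of the list in both lines, by 1.19 in H460 and 0.75 in A549 on the log2 scale.

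Upstream of RAS, the list of activators and adaptors held 6 that rose and 4 that fell of 13 in H460, against 4 and 2 of 12 in A549. With median-of-ratios scaling the H460 counts were 7 and 1. CRK rose 2.03-fold in H460, and GRB2, the adaptor that brings SOS to receptors, fell from 50.5 ± 2.38 to 24.6 ± 0.975 FPKM. In A549 RASGRF2 rose from 0.450 ± 0.134 to 2.35 ± 0.151 and SHC1 fell from 70.8 ± 5.90 to 49.9 ± 2.09. Of the GTPase-activating proteins, which switch RAS off, 2 of 8 rose and 3 fell in H460, against 3 and 1 in A549. The H460 counts became 4 and 3 with median-of-ratios scaling and with voom. RASAL2 rose most in both, 13.4-fold in H460 and 2.63-fold in A549, while RASA3 fell in H460 (15.5 to 4.47) and rose in A549 (6.66 to 11.4, limma adjusted p 0.000159). DAB2IP fell in A549 (5.70 to 3.25) and in H460 (3.10 to 0.649).

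Of 8 RAS relatives, 4 were higher in each line, with 2 lower in H460 and 1 in A549. RIT1 rose 3.69-fold in H460, RRAS2 2.11-fold in A549, and RRAS fell most in both (to 0.341 and 0.444 of the controls). The list of RAS lipid processing and membrane delivery, which holds genes that add lipids, genes that remove palmitate and the carrier PDE6D, included 3 that rose and 6 that fell of 13 in H460, against 3 and 4 in A549. FNTA, the shared subunit of the prenyl transferases, rose most in both lines (4.73-fold and 2.23-fold). ICMT, which methylates prenylated RAS, fell from 36.4 ± 2.43 to 5.28 ± 1.22 FPKM in H460, and PDE6D fell from 7.05 to 4.28 in A549. The palmitate-removing LYPLA1, LYPLA2 and ABHD17A were among the 6 that fell in H460.

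Among the scaffolds and regulators of RAF, MEK and ERK, 10 rose and 9 fell of 22 tested in H460, against 8 and 6 of 23 in A549. PEA15, which holds ERK in the cytoplasm, rose most in both, 7.10-fold in H460 (63.2 ± 4.15 to 448.6 ± 44.4 FPKM) and 3.92-fold in A549. LAMTOR2 fell most in H460 (34.7 ± 0.753 to 13.6 ± 9.93, with a wide spread) and YWHAH in A549 (46.3 to 33.5). Of the substrate kinases and transcription factors of ERK, 6 of 15 rose and 6 fell in H460, against 3 and 6 of 14 in A549. Removal of the GC trend gave 9 and 5 in H460. ETS1 rose most in both lines, 15.7-fold and 3.03-fold, and MKNK2 fell most, to 0.224 and 0.498 of the controls.

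The kinases of the other MAPK arms (JNK, p38, ERK5 and the atypical MAPK6) included 4 that rose and 7 that fell of 13 in H460, against 3 and 5 in A549. Median-of-ratios scaling gave 5 and 6 in H460. MAP2K3, an activator of p38, rose 4.86-fold in H460 and 2.21-fold in A549. MAPK12, the gamma form of p38, fell from 8.44 to 1.54 FPKM in H460, and MAP2K6 fell from 2.47 to 0.433 in A549.

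The genes whose log2 levels followed each member most closely over the 12 libraries were taken from about 6650 with a mean of at least 5 FPKM. SON, LGALS8 and ELF1 were most like BRAF (Pearson r 0.994, 0.992 and 0.992), and PHF19, ALDH16A1 and PYGB were most like MAPK3 (0.986 to 0.984). ARAF was followed by PYGO2, PITX1 and P3H3 (0.990 to 0.987), HRAS by NDUFS8, MCRIP1 and TSPAN4 (0.991 to 0.984), NRAS by NOL11, EIF3M and COPB1 (0.978 to 0.971), MAP2K1 by RARA, SH2D5 and ENO3 (0.980 to 0.968) and MAP2K2 by GTF3C5, WRNIP1 and CINP (0.954 to 0.952). The number of genes with r over 0.9 was 506 for BRAF, 432 for HRAS, 427 for MAPK3, 395 for ARAF, 145 for MAP2K1, 86 for NRAS and 27 for MAP2K2. Among the members themselves ARAF and MAPK3 were most alike (r 0.943), and ARAF and MAP2K1 ran most opposite (-0.905). The points are libraries of 4 groups, so the values mostly follow group differences, and they are given as a description.

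**Figure D5:**
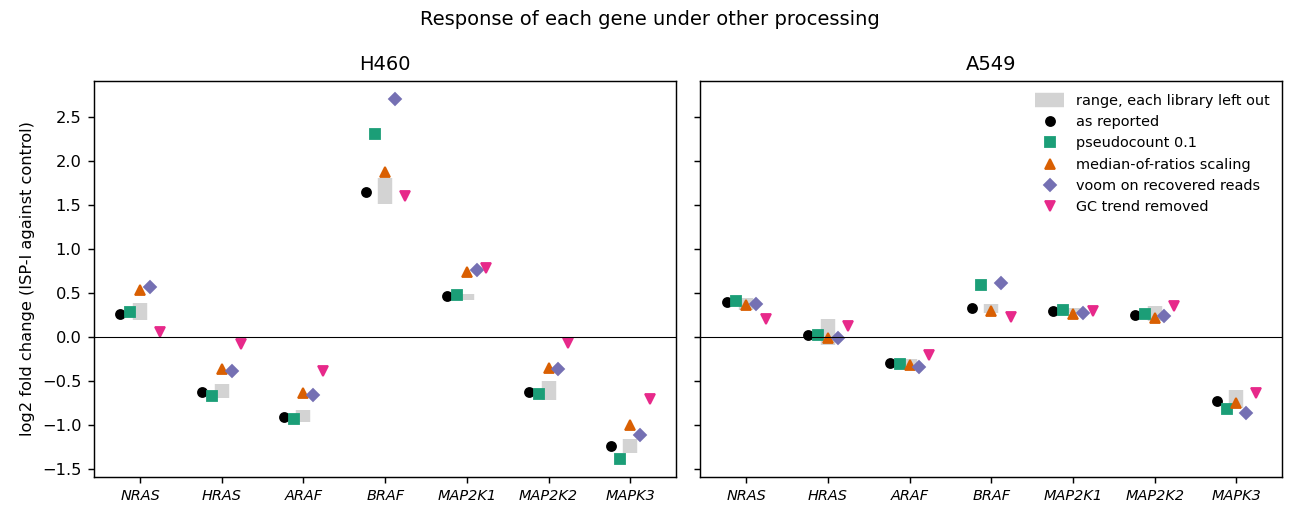
Log2 fold change with ISP-I (vertical axis) of each gene in H460 and A549 as reported and under 4 other ways of processing; grey bars span the values with each library left out in turn. In H460 BRAF stayed between 1.51 and 2.70 and MAPK3 between -1.39 and -0.70, while HRAS and MAP2K2 came close to 0 after removal of the GC trend.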

How the data were processed

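The authors prepared TruSeq libraries, used FastQC to filter paired-end reads, HISAT2 for alignment to hg38 and HTSeq 0.9.1 for counting on genes, and deposited FPKM for each library beside the listed gene length in bases. The annotation and strand setting are not given in the sources used here. Multiplying FPKM by length gave whole multiples of 1 read's value for 100% of values (tolerance 0.01 read), which gave reads and depth. Of the table's lines, 4 pieces of an overlong cell were left out. Columns name the line and treatment, so libraries are numbered by their order within a group.

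From these values, log2(FPKM + 1) was compared with limma 3.58.1 (R 4.3.3, mean-variance trend) over genes averaging 0.1 FPKM or more, with Benjamini-Hochberg adjustment over all genes tested in each of 4 comparisons. The script was tested on simulated data. Python 3.11.15 with numpy 2.4.6 and pandas 2.3.3 made the tables. Sequences, MANE lengths and GC content came from hg38 and GENCODE 44. Alternatives were no filter, a filter at 1 FPKM, adding 0.1 in place of 1, median-of-ratios scaling, limma voom on recovered reads (at least 10 in 3 libraries), removal of each library's GC trend (lowess, span 0.3), all 12 libraries in a single fit, and each library left out. Levels per MANE length and ratios after GC trend removal were added after the data were seen. The members, lists and tests were chosen with earlier results of these data known. In each list and line, the largest rise and fall among genes that passed with a mean of at least 1 FPKM were named. Where outside this rule, SPRY2, EPHA4, RASA3, DAB2IP, LYPLA1, LYPLA2 and ABHD17A were named after their values were seen. The 3 genes most like each member were also named.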

Additional observations from a re-analysis of the deposited data

Results flagged for a closer look

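The responses of 5 genes differed between the lines by a test of the difference itself, the interaction of line and treatment (limma, Benjamini-Hochberg over all genes tested). In H460 minus A549 on the log2 scale, the difference was 1.32 for BRAF, a rise in both lines that was larger in H460. It was -0.88 for MAP2K2, which fell in H460 and did not pass in A549, -0.65 for HRAS, likewise, and -0.61 for ARAF and -0.51 for MAPK3, which fell in both lines. Among all genes 34.7% had a significantly more negative response in H460. The differences of HRAS, ARAF and MAPK3 were no longer significant with median-of-ratios scaling, voom or removal of the GC trend, and the part of scaling and base composition in them was not tested further.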

How the results depend on the processing

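Over single genes and the position of BRAF by level, 761 values under alternatives kept their direction and call, or their position. Of the rest, 33 lost and 10 gained a call, and 6 changed sign, none of them a call. All of these changes were in the members. The 761 also hold the genes named for the largest rise or fall in each list, which were picked because they passed. HRAS in A549 (0.02) was -0.013 with median-of-ratios scaling and -0.012 with voom, and -0.10 to 0.20 with each library left out. The NRAS difference between lines (-0.13) was 0.17 with median-of-ratios scaling and 0.19 with voom. Removal of the GC trend left 2 lower members in H460 in place of 4. In the difference between lines, median-of-ratios scaling, voom and GC trend removal each gave 2 higher and 1 lower in place of 1 and 4. In untreated H460 against A549, median-of-ratios scaling and voom gave 1 lower in place of 3. Leaving out each library gave 1 to 3 lower there (1 without H460 control library 2), and 3 to 5 higher in A549 (5 without control library 3). With a pseudocount of 1 the log2 change of ARAF to BRAF was -2.55 in H460 and -0.62 in A549 in place of -3.36 and -0.95. With the GC trend also removed, an alternative chosen after seeing the data, it was -1.99 and -0.43, that of NRAS to HRAS in H460 0.13 in place of 0.95, and that of MAP2K1 to MAP2K2 0.85 in H460 in place of 1.13 and -0.065 in A549 in place of 0.05. With each library left out it was -3.61 to -3.12 and -1.07 to -0.77, that of NRAS to HRAS was 0.77 to 1.15 and 0.11 to 0.56, and that of MAP2K1 to MAP2K2 in A549 was -0.029 to 0.095. BRAF had no value in the untreated comparison at a mean of at least 1 FPKM, a filter that its control means (0.957 in H460 and 0.833 in A549) did not reach. The cause of the changes under other processing was not tested. No paired analysis was possible because the columns carry no replicate number that ties libraries of different groups. Depth gave 238 or more reads for every member in every library, so counting error was small, but 3 libraries per group limit the precision.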
